A study of Homo sapiens with 2 samples.

Results

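The KLF5 locus was examined in the H3K27ac HiChIP list of KYSE180 cells as the loops with at least 1 bin starting in chr13:73200000-74700000 (hg19), a window of 1.5 Mb around the gene. This gave 91 of the 31950 loops of the list, or 0.285% (95% Wilson interval 0.232 to 0.350%), with 93 contacts. KLF5 was placed at 73629114 to 73651680 on the plus strand, so that downstream means higher positions. HiChIP ligates DNA ends that lie close together in the nucleus and enriches the joined fragments for a chromatin mark, here H3K27ac, which marks active promoters and enhancers. KYSE180 is an established esophageal squamous cell carcinoma (ESCC) line, and both libraries, labelled as replicates 1 and 2, came from cells that received a non-targeting siRNA and no other treatment. The authors deposited 1 list for the 2 libraries, so the values below have no replicate spread, no test across samples was possible, and intervals cover counting error only. Each loop joins 2 bins of 2 kb (anchors), and carries the number of contacts between them and the coverage of its first bin, that is, the counts in all contacts of that bin. The list does not name these columns, and they were read by their order and values. The paper describes its loops as p63-associated and excluded those with an end not marked by H3K27ac. A bin with 0 loops below is thus one without loops in this list, and may have had contacts that were not listed.

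KLF5 is a zinc finger transcription factor of the Krüppel-like family that binds GC-rich DNA elements and is active in the proliferating layers of squamous and intestinal epithelia. In squamous cancers it is known as a partner of TP63 and SOX2, and clusters of enhancers in the long interval downstream of the gene are known to act on it. Enhancers can reach a distant promoter by looping. A HiChIP contact between marked bins reports that they lay close together, not whether either acts on the other. In the RefSeq annotation of hg38, the protein-coding genes before KLF5 are, from far to near, MZT1, which serves microtubule nucleation, BORA, an activator of Aurora A kinase, DIS3, a ribonuclease of the RNA exosome, and PIBF1, a centrosomal protein. PIBF1 ends 38.5 kb before KLF5. The next protein-coding gene after KLF5 is KLF12, another Krüppel-like factor, which lies on the minus strand with its 3′ end toward KLF5, 609 kb past the end of KLF5. These gaps are on hg38. No hg38 position was laid over the loops, and hg38 gaps were compared with the bins only as distances.

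RefSeq holds 2 KLF5 starts, 4029 bases apart on hg38. The 250 bases before each are printed here because the loops of the gene fall on the bins just downstream of the first start. Capitals mark matches on either strand to 5 short motifs, which do not contain each other. They are the GC box with the letters GGGCGG, the box of Krüppel-like factors with the letters CACCC, the NF-Y box with the letters CCAAT, the TATA box with the letters TATAAA and the AP-1 site with the letters TGANTCA.
First start, chr13:73054726-73054975 (GRCh38.p14, plus strand): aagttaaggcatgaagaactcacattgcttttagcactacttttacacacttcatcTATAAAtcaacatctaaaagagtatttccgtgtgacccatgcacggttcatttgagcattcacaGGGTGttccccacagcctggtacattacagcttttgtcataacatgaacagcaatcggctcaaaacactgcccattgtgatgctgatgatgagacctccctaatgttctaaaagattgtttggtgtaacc
Second start, chr13:73058755-73059004 (GRCh38.p14, plus strand): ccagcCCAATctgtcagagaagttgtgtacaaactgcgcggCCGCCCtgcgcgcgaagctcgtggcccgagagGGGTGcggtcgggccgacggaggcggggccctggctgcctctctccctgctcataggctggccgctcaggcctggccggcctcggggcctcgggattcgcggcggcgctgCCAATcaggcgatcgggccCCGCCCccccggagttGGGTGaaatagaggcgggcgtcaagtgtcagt
The sequence before the first start was 40.8% G or C with 3 CpG, and the one before the second start 70.8% with 27 CpG. The medians over 34943 RefSeq promoters of this length were 58% and 11. The first held 1 TATA box, found in 10.8% of these promoters, and 1 box of Krüppel-like factors (54.7%). The second held 2 GC boxes (42.5%), 2 NF-Y boxes (32.0%) and 2 boxes of Krüppel-like factors. The AP-1 letters, present in 6.59% of promoters, were in neither window. The KLF5 start used for the loops is the first one: the gene was 22567 bases long as placed on hg19 and 22563 on hg38.

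KLF5 had 11 loops, each with 1 contact, at 4 of the 12 bins that the gene covers. Counting error alone allows 0.0253 to 5.57 for a single contact and 5.49 to 19.7 for the 11 together (exact 95% Poisson intervals). The bin that holds the first start had 0 loops. The bin 73630001-73632000 begins 0.887 kb past the start, so only its first bases fall in the promoter (within 1 kb of the start). It was the only bin touching the promoter that had loops, with 4 loops and a coverage of 25. The next bin, 73632001-73634000, lies 2.89 to 4.89 kb past the start, a stretch that includes the distance between the 2 RefSeq starts, and had 4 loops and a coverage of 59. This was the highest coverage of the 56 first bins of the locus, and 2.46% of the first bins of the list and 1.39% of those of chromosome 13 were covered as deeply. The bin 73634001-73636000 had 1 loop and a coverage of 17. The bin 73638001-73640000, in the body of the gene, had 2 loops and no listed coverage, because it was the second bin of both. The bin between these 2 and the 6 bins after them, to the end of the gene, had 0 loops. Within 5 kb of the start, KLF5 thus had 9 loops. As a share of coverage, the contacts in listed loops made up 16.0% (Wilson interval 6.40 to 34.7%) at 73630001, 6.78% (2.67 to 16.2%) at 73632001 and 5.88% (1.05 to 27%) at 73634001. The 3 intervals overlapped.

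The KLF5 loops ran mostly downstream, 8 of 11 or 72.7% (Wilson interval 43.4 to 90.3%), with spans of 80 to 648 kb and a median of 295 kb. Of the 79 anchors of the window outside the gene, 88.6% (79.7 to 93.9%) lay downstream, an interval that overlaps that of the loops. These anchors include the 11 partners of KLF5, so the shares are not independent. KLF5 was joined to 8 of the 70 downstream anchors and to 3 of the 9 upstream ones. The bin 73630001, nearest the start, had only downstream partners. They lay 234 kb (73862001-73864000), 279.9 kb (73908001-73910000), 346 kb (73974001-73976000) and 649.9 kb (74278001-74280000) past the start. The bin 73632001 had downstream partners at 83.9 kb (73712001-73714000), 114 kb (73742001-73744000) and 556 kb (74184001-74186000). The bin 73634001 was joined to 73946001-73948000, 318 kb past the start. Thus the 4 bins shared no partner bin, and the 11 loops had 11 different partners.

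The remaining 3 loops of KLF5 went upstream. The bin 73632001 was joined to 73508001-73510000, 120.1 kb before the start. Both loops of the gene body bin 73638001 led to a pair of touching bins, 73414001-73416000 and 73416001-73418000, with spans of 224 and 222 kb. No other pair of KLF5 loops had the same or touching bins at both ends. The upstream partners had low coverages of 4, 6 and 6, whereas the downstream partners with a listed coverage had 11 to 44. Partners differed in how many further loops they had: 73742001 had none, and the farthest one, 74278001, had 7.

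**Figure D1:**
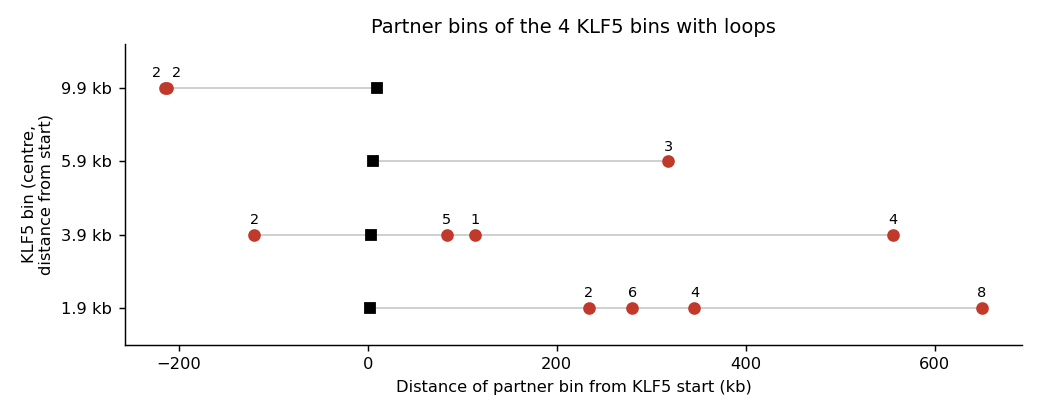
Partner bins of the 4 KLF5 bins with loops, by distance from the KLF5 start in kb (x axis, negative is upstream). Each row is a KLF5 bin named by the distance of its centre (black square), each red point is a partner joined by 1 contact, and the number above it is the count of loops of that partner in the locus, from 1 to 8.

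Around the gene, the anchors were unevenly placed. Of the 83 anchors in the window, 9 lay upstream of KLF5, 4 in it and 70 downstream, that is, 2.10 anchors per 100 kb in the 429 kb upstream and 6.68 per 100 kb in the 1048 kb downstream. No anchor lay in the 100 kb between 73530000 and 73630001, so the anchors nearest to the first start were those in the gene. By distance, all upstream anchors thus lay past the near end of PIBF1, 38.5 kb before KLF5 on hg38. They could lie in neighbouring genes. Downstream, 69 of the 70 anchors lay within 700 kb of the start, and the last, at 995.9 kb, came after a gap of 324 kb. Beyond the window the next anchors of chromosome 13 were 20.5 Mb below and 2.43 Mb above the start.

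Anchors are the ends of loops, so the placement of the loops is bound to that of the anchors. Both ends lay downstream of the gene in 70 of 91 loops, or 76.9% (Wilson interval 67.3 to 84.4%), and 2 joined upstream anchors to each other over 20 and 22 kb. The window is longer downstream (1048 kb) than upstream (429 kb), and these counts are not corrected for it. When the start alone divided the sides, 85.7% of the loops lay downstream of it, since the KLF5 bins then count as downstream. No loop joined 2 bins of KLF5, but the shortest span in the list is 10 kb. The 4 KLF5 bins with loops start at 73630001 to 73638001, so a loop between them would be shorter than any listed. A further 8 loops, 8.79% (4.52 to 16.4%), passed over the gene from an upstream to a downstream anchor, with spans of 248 to 920 kb and a median of 513 kb. The longest joined 73356001-73358000 to 74276001-74278000, next to the farthest partner of KLF5. Its upstream bin lies from -273.113 to -271.114 kb from the KLF5 start, a range that holds the hg38 gap of 273.075 kb to DIS3. The upstream pair 73414001 and 73416001 took part in both kinds: beside its loops to KLF5 it was joined over the gene to 73988001-73990000 and 73664001-73666000. The bin 73458001-73460000 had 3 loops and a coverage of 9, and all 3 passed over KLF5.

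**Figure D2:**
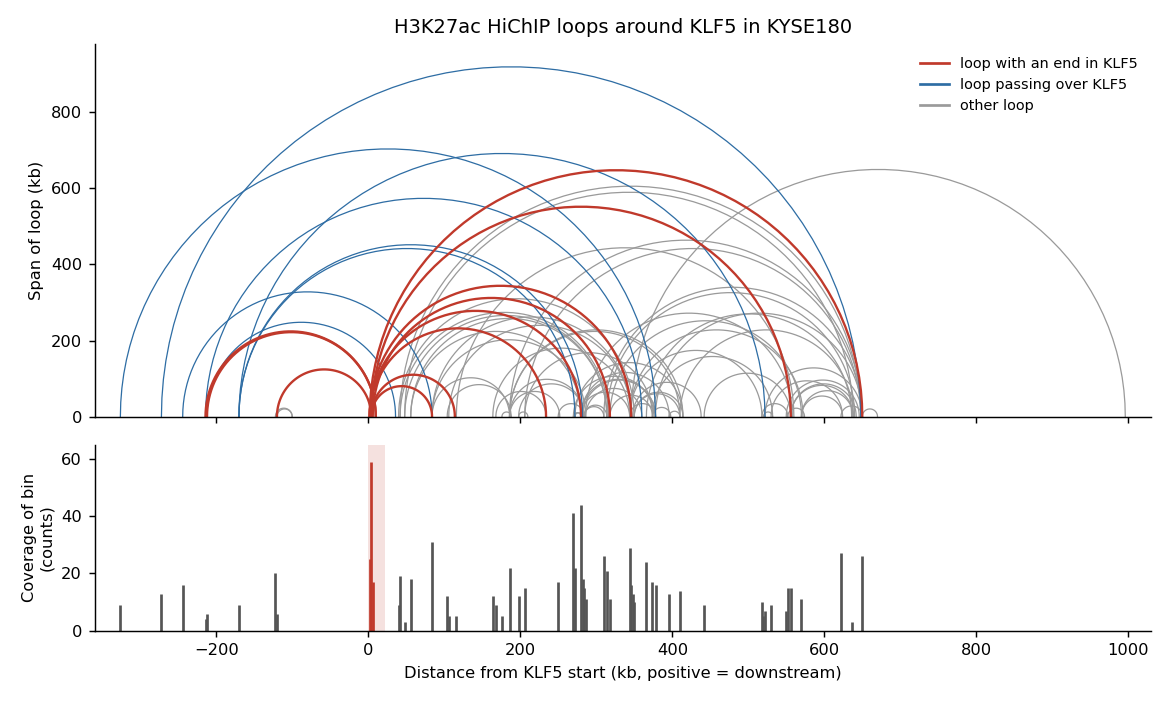
Loops of the KLF5 locus by distance from the KLF5 start (x axis, kb), with the height of each arc giving its span in kb (upper panel), and the coverage of each first bin in counts (lower panel, KLF5 shaded). Red arcs are the 11 loops of KLF5, blue arcs the 8 loops over it and gray arcs the others, most of them within 700 kb downstream. The KLF5 bins reach a coverage of 59, and the 2 loops that leave the window are not drawn.

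Joining anchors that touch gave 48 stretches of at most 8 kb, among them 26 lone bins. Their loops ranged from 1 to 17 with a median of 2, the same median as over the 22628 stretches of the list. The stretch with the most loops was 73908001-73916000, 283 kb downstream of the KLF5 start, with 17 loops, 18 contacts and a highest bin coverage of 44, and 0.977% of all stretches had as many loops. It was followed by 73972001-73980000 (347 kb) with 13 loops, 74274001-74280000 (648 kb) with 12 and 74002001-74008000 (376 kb) with 10. The stretch 73630001-73636000 at the 5′ end of KLF5 came next, with 9 loops to 9 other stretches, and 4.73% of all stretches had as many. The 3 stretches with the most loops each had 1 loop to KLF5, and the fourth had 0.

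**Figure D3:**
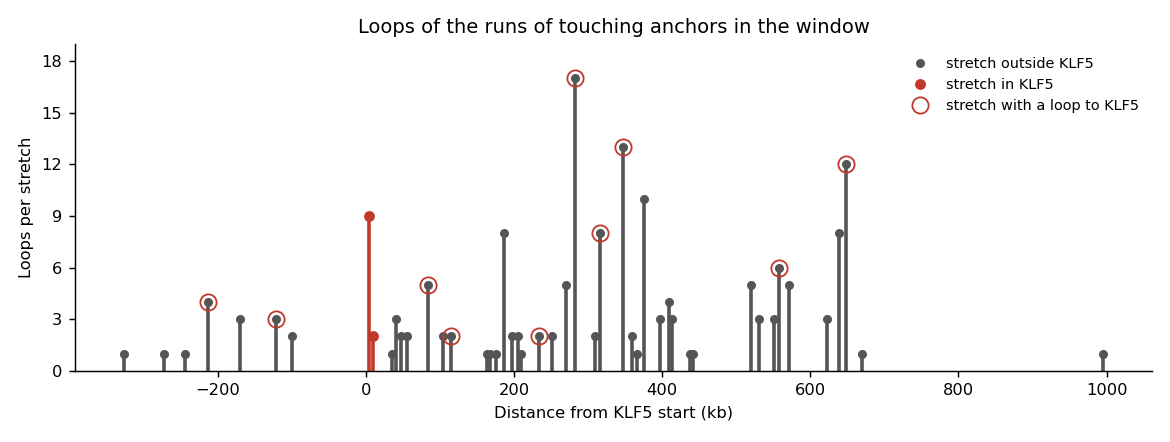
Number of loops of each of the 48 stretches of touching anchors (y axis) by distance from the KLF5 start in kb (x axis). Red lines are the stretches in KLF5, with 9 and 2 loops, and circles mark stretches joined to KLF5, among them the 3 with the most loops (17, 13 and 12).

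Among single bins, 74278001-74280000 had the most loops of the locus, 8, with a coverage of 26. Of these, 1 led to KLF5, 5 to bins between KLF5 and the hub, 1 to 74298001-74300000 and 1 out of the window to 76058001-76060000, a span of 1780 kb. This hub, also the farthest partner of KLF5, lies 649.9 kb past the KLF5 start. On hg38, the near end of KLF12 lies 609 kb past the end of KLF5, a gene of 22.567 kb. By distance alone, the hub and its stretch 74274001-74280000 thus lie past the near end of KLF12. The bin 73814001-73816000 (186 kb downstream) had 6 loops and a coverage of 22, including 1 to 74278001 but none to KLF5. The bin 73908001-73910000 also had 6 loops, with 7 contacts and a coverage of 44, the second highest of the locus. Over the 56 bins with a coverage, the Spearman correlation of loops with coverage was 0.448. The bins come from the same libraries, and each loop adds to the coverage of its first bin, so this is a description.

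Only 2 loops of the locus had more than 1 contact, and neither touched KLF5. The first joined 73506001-73508000 to 73528001-73530000 upstream of the gene, with 2 contacts, a span of 22 kb and a coverage of 20. The second joined 73898001-73900000 to 73908001-73910000, with 2 contacts, a span of 10 kb and a coverage of 41, and one of its ends is also the partner of KLF5 at 279.9 kb. The Poisson interval of 2 contacts, 0.242 to 7.22, overlaps that of 1 contact. The share of loops with 2 or more contacts was 2.20% (Wilson interval 0.605 to 7.66%) against 1.5% (0.728 to 3.06%) in the rest of chromosome 13 and 3.36% (3.17 to 3.56%) in the rest of the list. Both loops were in the class of 10 to 50 kb, where the shares were 11.8% (3.29 to 34.3%) of 17 loops, 4.35% (2.01 to 9.16%) of 138 and 7.25% (6.76 to 7.78%) of 9900, so the order of the locus and the rest of the list depended on the span. In each comparison the intervals overlapped, and a difference was not detectable with 91 loops.

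When anchors with up to 6 empty bins between them were also merged, the window held 24 clusters in place of 48 stretches. The 4 KLF5 bins then formed 1 cluster of 10 kb (73630001-73640000) with 11 loops to 10 other clusters. It was joined to 8 of the 16 clusters downstream and to 2 of the 7 upstream. Of these 10 pairs, only the one with 73414001-73418000, upstream, had 2 loops, and the other 9 had 1. Within the window 54 pairs of clusters were joined, 18 of them by 2 or more loops and 4 by 3 or more. The most, 5 loops, joined 73898001-73916000 to 73972001-74008000 and, farther downstream, 74178001-74204000 to 74250001-74280000. The cluster with the most loops was 73972001-74008000, with 25 loops to 15 clusters. The 10 clusters joined to KLF5 were also joined among themselves by 25 loops, in 14 of the 45 possible pairs. They include the clusters with the most loops (25, 22 and 20), and both pairs with 5 loops are among the 14. Whether they were joined more often than other clusters with as many loops was not tested. The cluster 73792001-73840000, 187 kb downstream, had 14 loops to 8 clusters, and the nearest downstream cluster, 73664001-73686000, had 8 loops to 5 clusters, but neither had a loop to KLF5.

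**Figure D4:**
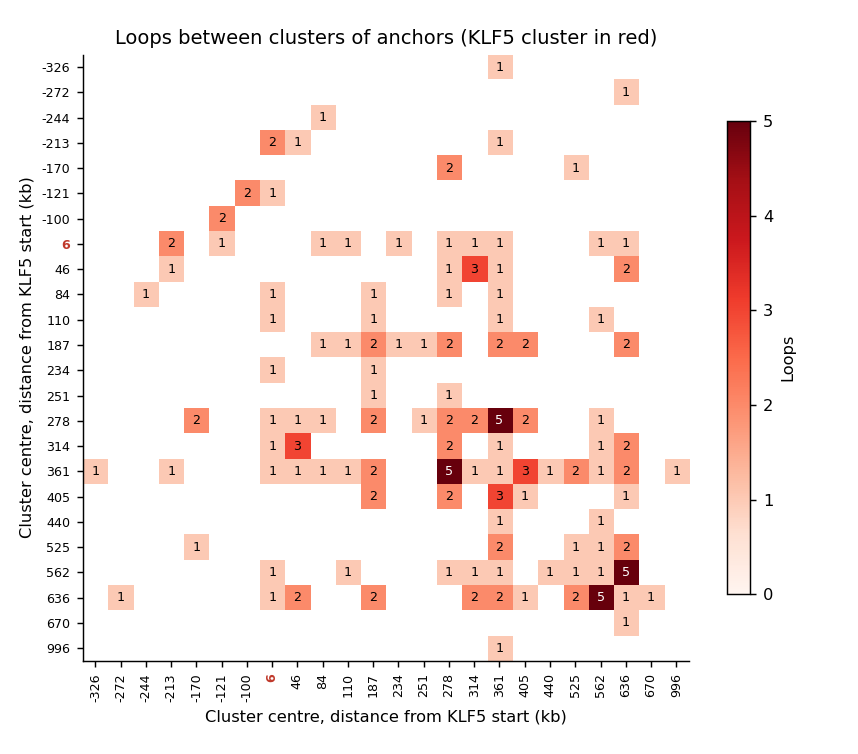
Loops between the 24 clusters of anchors of the window, each named on both axes by the distance of its centre from the KLF5 start in kb, with the count of loops in each square and the KLF5 cluster in red. The KLF5 row holds 9 squares with 1 loop and 1 with 2, while the largest squares, with 5 loops, join downstream clusters to each other.

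Followed bin by bin, 84 of the 91 loops could be reached from KLF5. These loops connected 73 bins: 4 in the gene, 11 joined to it directly, 24 at a distance of 2 loops, 19 at 3, 9 at 4, 5 at 5 and 1 at 6. The 11 direct partners had 27 further loops, of which 1 joined 2 of them (73712001 with 73974001, 262 kb apart). The other 7 loops formed 5 small groups of 2 or 3 bins with no path to KLF5. A path through several loops does not show that the contacts occurred in the same cell.

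Compared with the rest of the list, the locus had fewer short loops and more of intermediate span. Loops of 10 to 50 kb made up 18.7% (Wilson interval 12.0 to 27.9%) of the locus, 29.6% (25.6 to 33.8%) of the rest of chromosome 13 and 31.1% (30.6 to 31.6%) of the rest of the list. Those of 200 kb to 1 Mb made up 44.0% (34.2 to 54.2%), 30.0% (26.0 to 34.3%) and 27.6% (27.1 to 28.1%), respectively. In both classes the interval of the locus overlapped that of chromosome 13 and not that of the rest of the list. Loops of 1 Mb or more were 2.20% (0.605 to 7.66%), 12.2% (9.54 to 15.5%) and 11.7% (11.3 to 12.0%), and here the interval of the locus was below both. The longest span in the list is 5000 kb, and the next anchors beyond the window lay 20.5 Mb below and 2.43 Mb above the KLF5 start. How far this spacing sets the share of long loops was not tested. The median span was 158 kb (interquartile range 66 to 276 kb) against 128 kb (36 to 448 kb) and 120 kb (36 to 398 kb). No replicate gives the spread of these shares, and loops that share an anchor are not independent, so the differences were not tested.

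**Figure D5:**
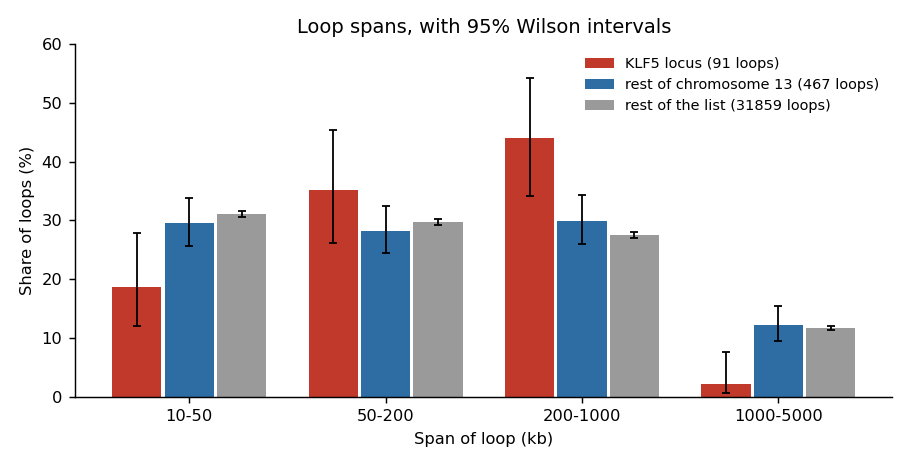
Share of loops in 4 classes of span (x axis, kb) in percent (y axis), for the 91 loops of the KLF5 locus, the 467 other loops of chromosome 13 and the 31859 other loops of the list, with 95% Wilson intervals as error bars. The locus holds 18.7% of its loops in the shortest class, 44.0% between 200 kb and 1 Mb and 2.20% in the longest.

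Anchors of the locus more often had several loops. Of its 85 anchors, 45.9% (Wilson interval 35.7 to 56.4%) had 1 loop, against 68.6% (64.9 to 72.2%) of the 625 anchors of the rest of chromosome 13 and 59.2% (58.7 to 59.7%) of the 34817 of the rest of the list, with no overlap of the interval of the locus with either. Each loop counts at 2 anchors, so anchors are not independent, and this difference was not tested. The most loops of an anchor were 8 in the locus, 9 in the rest of chromosome 13 and 27 in the rest of the list. Anchors of other windows with as many loops were not compared. The coverage of first bins was similar, with a median of 13.5 (interquartile range 9 to 19.3, 56 bins) in the locus, 11 (7 to 16) in the rest of chromosome 13 and 12 (8 to 20) in the rest of the list. The locus held 16.3% (13.5 to 19.6%) of the 558 loops of chromosome 13. Of the 22074 windows of 1.5 Mb with a loop, stepped by 100 kb over all chromosomes, 5.98% had as many loops as the KLF5 window, and their median was 11. On chromosome 13 no window had more than 91 loops, and the most in a window apart from the locus was 82, between 113.2 and 114.7 Mb. These windows overlap, so the ranks are descriptions.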

How the data were processed

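H3K27ac HiChIP reads of 2 KYSE180 libraries were processed by the authors with HiC-Pro on hg19, per the labels, and FitHiChIP in its Peak-To-All mode. The methods describe the loops as p63-associated, and loops lacking H3K27ac at either end were dropped. Versions, loop thresholds and the depth of each library are not given in the sources used here. The deposited list gives whole-number counts, not normalized, of contacts per loop and coverage of the first bin. It has no score or q-value, so how strongly each loop passed is not shown.

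The window and the KLF5 position were given on hg19, with members, window and comparisons chosen with earlier results of these data known. The text was to name the stretches joined to KLF5, the 5 with the most loops, and the loops with 2 or more contacts. Hub bins and merged clusters were added after their values were seen. Promoter sequences came from RefSeq (GRCh38.p14), since no hg19 genome was used here. Shares have 95% Wilson intervals and counts exact Poisson intervals. Counting and merging were tested on simulated data. Alternatives covered the promoter, span, contacts, merging and windows. Scripts ran in Python 3.11.15 with pandas 2.3.3, scipy 1.17.1, numpy 2.4.6 and matplotlib 3.10.9.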

Additional observations from a re-analysis of the deposited data

How the results depend on the processing

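Of 18 alternatives tried over 9 results, 8 left the value within its limits and 10 moved it, and the cause follows from how each was built. With loops of 2 or more contacts, the locus had 2 loops and the KLF5 promoter and gene body 0 each. The promoter loops, 4 within 1 kb of the 5′ end, were 0 in the bin of the 5′ end alone and 9 within 5 kb or over the whole run of touching anchors. The 1 kb is counted from the first RefSeq start and leaves out the second, 4029 bases on by distance. The share of loops downstream was 85.7% with the 5′ end as the dividing point. Merging over up to 6 empty bins gave 24 clusters in place of 48 stretches. The share of windows as dense as the locus was 4.63% by anchors and 4.39% over all windows. No paired analysis was possible because the 2 libraries are of 1 condition and were deposited as 1 list, so no library could be left out either. Every KLF5 loop rests on 1 contact, so these loops were not ranked by strength.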
